A study of Mus musculus with 24 samples.

Results

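Stem cell derived mouse astrocytes (AGES) and cultured neonatal mouse astrocytes (neoAC CellC) were profiled by RNA sequencing, with 4 libraries in each group, and the expression of every gene on the autosomes and the mitochondrial genome was compared. The genes were chosen by position alone: of 49671 genes in the count table, 45145 lay on these chromosomes in the mouse annotation, 4181 on X or Y were left out, and 345 had no position in the annotation and were left out too. The study holds 24 libraries in 6 groups, the other 4 being neural stem cells (NSCs), directly isolated neonatal astrocytes (neoAC direct), and cultured and directly isolated adult astrocytes (AdAC CellC and AdAC direct). All astrocytes isolated from brain came from C57BL/6J mice. The pups of neoAC direct were aged 4 to 8 days and the adult mice 100 to 140 days, with 2 mice per adult isolation. AdAC CellC were cultured for 7 to 10 days.

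AGES came from a single embryonic stem cell line of the C57Bl/6N substrain (GSC-5003). The line was first turned into NSCs, which were expanded with FGF and EGF to passages 50 to 60, and was then differentiated with 20 ng/ml BMP4 for 3 to 5 days. The replicates were cultures from different passages. neoAC CellC came from the cerebral tissue of wild-type C57BL/6J pups aged 4 to 8 days, with 2 mice pooled per isolation and sexes mixed. These cells were sorted with magnetic beads against ACSA-2, an epitope of the sodium pump subunit Atp1b2, and cultured for 7 to 10 days in a commercial astrocyte medium, so the replicates were separate isolations. Both cultures grew on laminin, laid over poly-L-ornithine for AGES and over poly-L-lysine for neoAC CellC. No gene was deleted or overexpressed by design in either group. Substrain, BMP4 treatment, passage number, medium, coating, time in culture and the sort differ together with cell origin and cannot be told apart from it here. All AGES replicates come from a single line, so their spread is that between cultures of this line.

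Astrocytes take up glutamate and GABA from synapses, buffer potassium and water through channels at their endfeet, share ions and metabolites through gap junctions, and supply neurons with lactate, cholesterol and matrix. They arise from radial glia and neural stem cells under BMP, Notch and cytokine signals, and keep a transcription factor code of the brain region where they were born. In injury or inflammation they become reactive, a state marked by intermediate filaments such as GFAP and by complement, antigen presentation and interferon-stimulated genes. Ependymal cells, which line the ventricles and beat motile cilia, come from the same radial glia.

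The 4 AGES libraries held 28114306 to 36911160 counts and the 4 neoAC CellC libraries 28770124 to 33821050, so depth was alike in the groups. A count was seen for 20951 to 21697 genes in AGES and for 23719 to 24125 genes in neoAC CellC. Mitochondrial genes took 1.66 to 2.07% of the counts in AGES and 1.79 to 2.38% in neoAC CellC. Levels are given as CPM, the counts of a gene scaled to a common library total, after TMM scaling, a correction for differences in library composition whose factors were 0.888 to 0.935 in AGES and 1.114 to 1.13 in neoAC CellC. A group in which all 4 libraries have 3 counts or fewer of a gene is taken as not detected, and a fold against it is a lower bound set by 3 counts per library, which is 0.0997 CPM for AGES libraries and 0.0846 CPM for neoAC CellC libraries. In bulk RNA, fewer cells that express a gene and less of its RNA in each cell cannot be told apart. Of the 169 genes named here, 51 overlap a gene on the other strand. The counting options given by the study name no strand setting, so reads of both strands may have been counted together.

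Some defining markers of astrocytes were high in both groups and others were low in AGES. Gfap, the main intermediate filament of astrocytes (ENSMUSG00000020932, chr11:102887336-102900912, minus strand, GRCm38), was at 48327, 50220.2, 50465 and 52915 CPM in AGES and at 2653, 3142, 2805 and 2575 CPM in neoAC CellC. The glutamate transporters Slc1a2 (GLT-1) and Slc1a3 (GLAST) and the calcium-binding protein S100b were detected in all 8 libraries. Aldh1l1, the connexin Gja1 and the potassium channel Kcnj10 were at no more than 24.5 CPM in any AGES library and at 254 CPM or more in each neoAC CellC library. Markers of pluripotent cells summed to 8.9 to 11.5 CPM in AGES and to 105 to 186 CPM in neoAC CellC, where Tfcp2l1, a factor that some epithelia also express, made up 148 CPM of the sum, against 2.9 CPM in AGES. The marker of the sort, Atp1b2, was at 911 CPM on average in AGES and 1242 CPM in neoAC CellC, with overlapping libraries (log2 fold change -0.45, SE 0.14, edgeR adjusted p = 0.00593).

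Most genes differed between the groups. Of 18935 genes with enough counts to be tested, 14141 (74.7%) had an adjusted p under 0.05 in edgeR's quasi-likelihood test, 6453 (34.1%) higher and 7688 (40.6%) lower in AGES. The counts of each gene list below are read against these 2 shares. The libraries of the groups did not overlap for 13190 genes (69.7%). With scaling by library size only, the split of the called genes was 31.4% higher to 68.6% lower, against 45.6% to 54.4% with TMM, and the median log2 fold change of all tested genes was -0.37 instead of -0.07. Fold changes are given on the TMM scale.

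Large differences were mostly in genes lower in AGES. At a log2 fold change beyond 1 there were 2615 higher and 5645 lower genes, beyond 3 there were 494 and 3504, and beyond 5 there were 175 and 2167. Of genes at 10 CPM or more in neoAC CellC, 195 were not detected in AGES, and 13 genes showed the opposite. Among the 2825 genes at 100 CPM or more in either group the order was opposite, with 1692 higher and 696 lower in AGES. A further 3267 called genes differed by an absolute log2 fold change under 0.58.

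**Figure D1:**
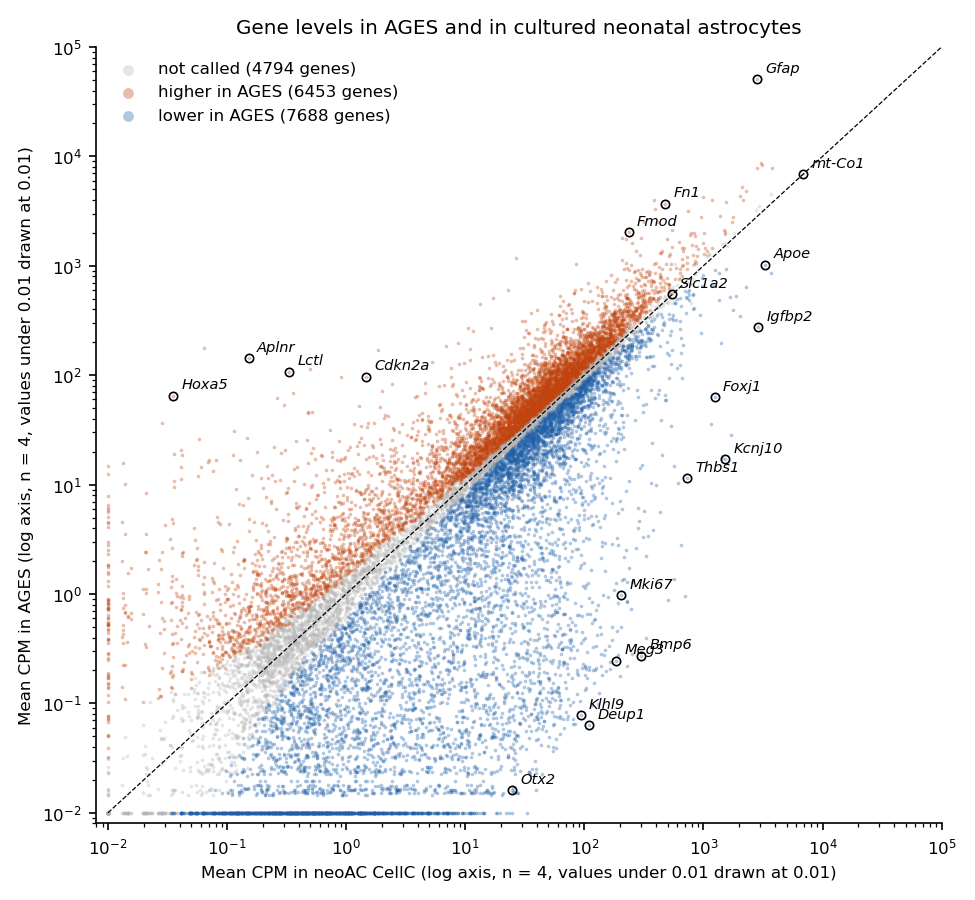
Mean CPM of each tested gene in neoAC CellC (x, log axis) against AGES (y, log axis), 4 libraries a group, with genes called higher in AGES in orange, lower in blue and not called in grey. The 2825 genes of highest level lie mostly above the diagonal, while a broad field of genes under 1 CPM in AGES lies below it.

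AGES put more of their reads into few genes. Gfap alone took 4.59% ± 0.178 (SD, n = 4) of the AGES counts, while the gene with most counts in each neoAC CellC library took 0.768% ± 0.104. The 100 genes with most counts held 23.9% ± 0.95 of the reads in AGES and 15.9% ± 0.452 in neoAC CellC. Without the top gene, the next 100 held 19.4% and 15.2%. After Gfap, the genes with most reads in AGES were Sparc, Vim, Pea15a and Scd2, a matrix protein, a filament, an adaptor of growth factor signalling and a fatty acid desaturase. All 4 were higher than in neoAC CellC: Sparc 8701 against 3031 CPM, Vim 8306 against 3102 CPM, Pea15a 7807 against 2793 CPM and Scd2 7762 against 3796 CPM. In neoAC CellC the leading genes included Igfbp5 and Igfbp2, binding proteins of insulin-like growth factors, and Apoe, the lipid carrier that astrocytes secrete. Igfbp2 was at 205, 198, 420.3 and 284 CPM in AGES and at 3816, 2279.5, 2359 and 3013 CPM in neoAC CellC. Its lowest neoAC CellC library was above every AGES library (log2 fold change -3.37, SE 0.23, adjusted p = 1.58e-12). Igfbp5 varied within AGES, at 1275, 1212, 602 and 323 CPM, and was at 3379 to 4108 CPM in neoAC CellC.

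Transcripts for glutamate uptake and breakdown did not pass the test, while several partner genes fell. Slc1a2, the main glutamate transporter of mature astrocytes, was at 486, 388, 621 and 692 CPM in AGES and at 507, 597, 564 and 497 CPM in neoAC CellC. Slc1a3 averaged 1264 and 1110.0 CPM, the glutamine synthetase gene Glul 431 and 416 CPM, and the glutamate dehydrogenase gene Glud1 468 and 480.1 CPM. None of these 4 passed the test, which does not show that their levels were equal (for Slc1a2 the log2 fold change was 0.01 with SE 0.17). By contrast Slc38a3 (SNAT3), which exports glutamine, was at 39.3, 40.5, 28.3 and 36.5 CPM in AGES and at 1142, 1107, 1282 and 1071 CPM in neoAC CellC. The GABA transporter Slc6a11 (GAT-3) was at 2.03 to 4.67 CPM in AGES against 167 to 213 CPM, and the cystine-glutamate exchanger Slc7a11 at 0.899 to 1.91 against 53.6 to 66 CPM. In the list of 16 genes that handle glutamate, GABA and glutamine, 2 were higher and 9 lower in AGES (median log2 fold change -0.83, beside -0.07 over all tested genes).

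Genes of potassium buffering, water transport and coupling moved in both directions, and of 20 genes 6 were higher and 14 lower in AGES (median -0.65). Kcnj10 (Kir4.1; ENSMUSG00000044708, chr1:172341210-172374085, plus strand), the inward rectifier that clears potassium, was at 20.2, 14.1, 9.16 and 24.5 CPM in AGES and at 1782, 1392, 1482 and 1433 CPM in neoAC CellC. That is a log2 fold change of -6.49 (SE 0.27, adjusted p = 2.33e-16). Gja1 (connexin 43), the gap junction protein of astrocytes, was at 20.4, 11.7, 3.68 and 5.4 CPM against 505, 665, 652 and 627 CPM. The water channel Aqp4 was at 156 to 315 CPM in AGES and 614 to 1144 CPM in neoAC CellC, whereas Mlc1, a membrane protein of astrocyte endfeet, averaged 2879.5 CPM against 1387 CPM. The potassium leak channel Kcnk1 was low in AGES, at 0.625 to 1.35 CPM, against 138 to 151 CPM.

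**Figure D2:**
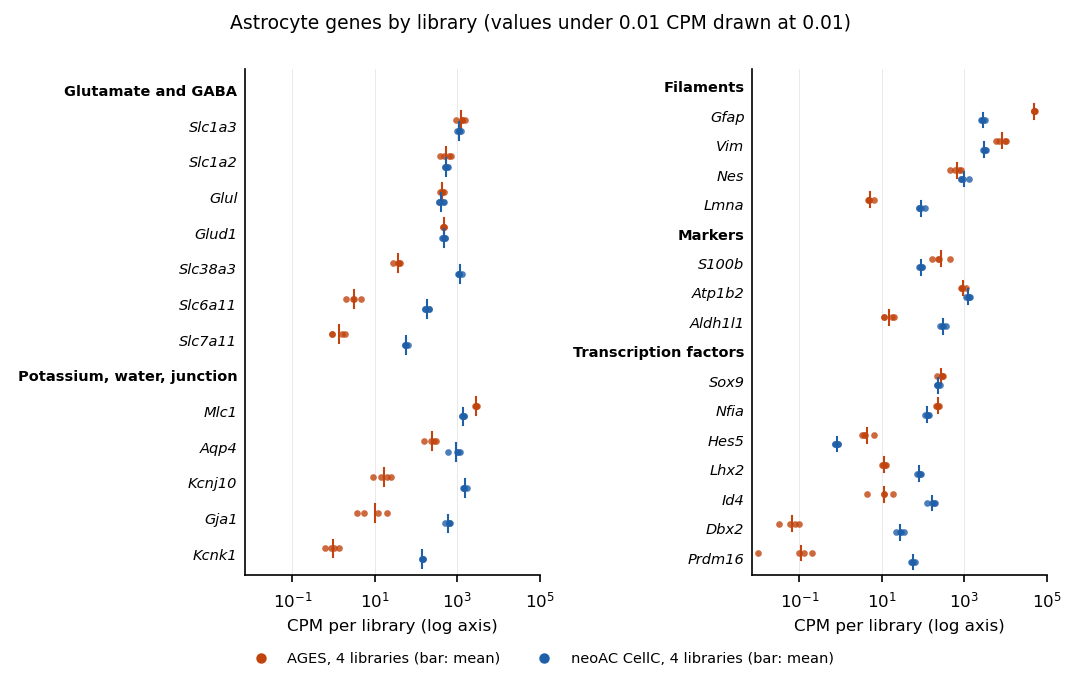
CPM in each library (log axis) of astrocyte genes by role, AGES in orange and neoAC CellC in blue, with a bar at each group mean. Slc1a2, Slc1a3, Glul and Glud1 overlap between the groups, while Slc38a3, Kcnj10 and Gja1 are separated, as is Gfap in the other direction.

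Other markers of the lineage also moved in both directions. Aldh1l1, the folate enzyme used to label all astrocytes, was at 17.3, 11.2, 11.5 and 19.9 CPM in AGES and at 364, 254, 303 and 292 CPM in neoAC CellC (log2 fold change -4.34, SE 0.29, adjusted p = 3.72e-12), and S100b was at 169.7 to 443 CPM against 81.1 to 96.1 CPM. Of 20 astrocyte transcription factors, 5 were higher and 13 lower, beside 34.1% and 40.6% of all genes. The glial determinants Nfia (225 against 127 CPM) and Hes5 (4.3 against 0.801 CPM) were higher, while Sox9 did not pass the test at 274 and 235 CPM. Prdm16, a regulator of radial glia, and the homeobox gene Dbx2 were among the lower genes. Prdm16 was at 0 to 0.203 CPM in AGES against 50.7 to 62.4 CPM, and Dbx2, not detected in AGES by the limit above, was at 21.9 to 34.7 CPM in neoAC CellC. Id4 stood at 11.5 against 166 CPM. Of 16 intermediate filament and lamin genes 4 were higher and 9 lower (median -1.88), and 4 and 4 when 10 counts were required in every library (median 0.19). The nuclear lamin Lmna was at 4.72 to 6.5 CPM in AGES against 77.8 to 110.5 CPM.

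Hox genes, which specify hindbrain and spinal cord levels, were detected in AGES and hardly in neoAC CellC (summed level 196 to 215 CPM against 0.530 to 0.914 CPM), and most factors of forebrain and midbrain were lower in AGES. Of 39 Hox genes 16 passed the filter on low counts, which most did not pass through neoAC CellC, so a count of higher members among them was largely fixed by the filter. With no filter 19 of the 39 were called higher and none lower, and with 10 counts required in every library no Hox gene was left to test. Hoxa5 (ENSMUSG00000038253, chr6:52201754-52204587, minus strand) was at 64.2, 69.3, 64.6 and 61.8 CPM in AGES and at 0.0312, 0.0262, 0.0831 and 0 CPM in neoAC CellC, which is at least 768-fold higher. Hoxa2 was at 31 to 42.2 CPM and at least 431-fold higher, Hoxb3 at 14.6 to 17.2 CPM and at least 188-fold higher, and Hoxa10 at 6.09 to 6.68 CPM and at least 76.9-fold higher. Hoxa3 overlaps antisense transcripts on the other strand, and its 17.2 to 19.6 CPM may include reads of them. Hoxd8 was called as well, at 1.28 to 2.34 CPM in AGES, and the other genes called with that filter were of the A and B clusters. The NSCs that AGES came from had a like level of Hoxa5, 65.0 CPM on average.

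Among 36 forebrain and midbrain patterning factors 32 were tested, with 4 higher and 26 lower in AGES (median -3.63, and -2.64 with undetected genes at their bound). Of those tested, 13 were not detected in 1 of the groups. With 10 counts required in every library, 2 were higher and 7 lower (median -1.90). Otx2, which marks forebrain, midbrain and choroid plexus, was at 0, 0, 0.032 and 0.0329 CPM against 18.9, 27, 25.4 and 27.2 CPM, at least 247-fold lower. Nr2e1, a factor of forebrain stem cells, Six3 and Emx1 were lower as well, at 0.329, 0.54 and 0 CPM on average in AGES against 71.5, 24.9 and 5.44 CPM. The 4 higher genes included the midbrain-hindbrain genes En1, at 9.18 to 15.1 CPM against 0.183 to 0.305 CPM, and En2, at 18.5 against 2.53 CPM. The others were Pax7, which marks dorsal midbrain and dorsal cord, at 8.63 against 0.651 CPM, and Pax6, a factor of radial glia along the whole neural tube, at 108 against 53 CPM.

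**Figure D3:**
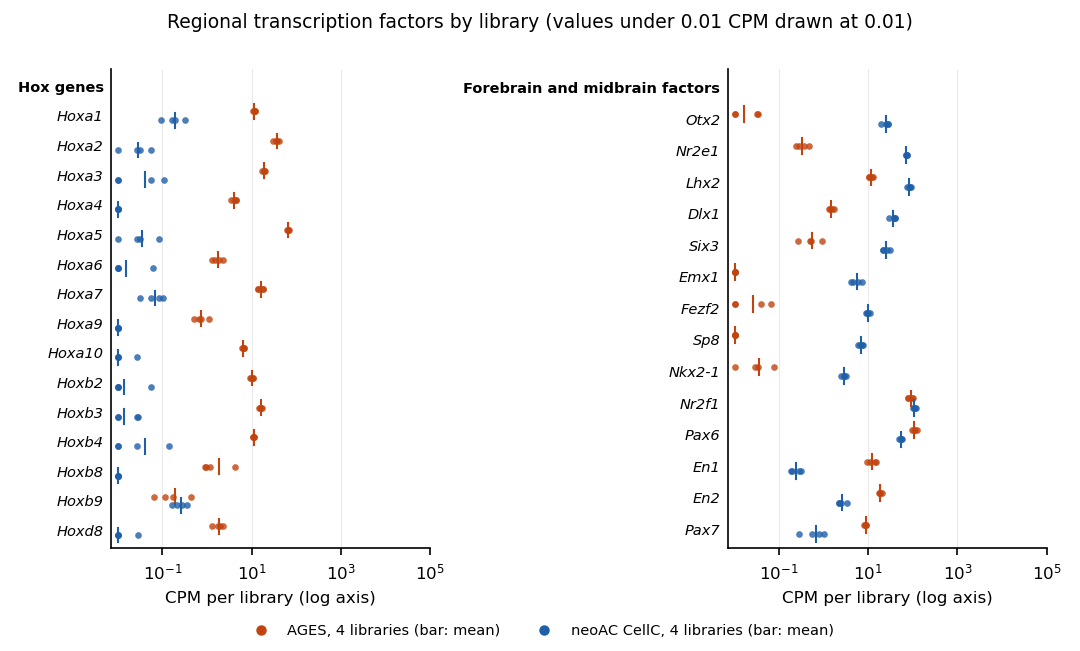
CPM in each library (log axis) of Hox genes and forebrain and midbrain factors, AGES in orange and neoAC CellC in blue. The Hox genes other than Hoxb9 are higher in all AGES libraries, and Otx2 and Emx1 lie far to the left in AGES.

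AGES were made with BMP4, a ligand whose receptors act through SMAD proteins on target genes. Of 19 BMP target genes 11 were higher and 7 lower (median 0.78). The Id genes, which block differentiation factors and are direct SMAD targets, were at 522 to 677 CPM for Id1 in AGES against 74 to 107 CPM, at 473 against 99.5 CPM on average for Id2, and at 1062 against 224 CPM for Id3. Smad7, a feedback inhibitor, was at 34.8, 53.1, 81.4 and 73.4 CPM in AGES and at 10.5 to 12.8 CPM in neoAC CellC. Tbx2 was at 101, 102, 42.7 and 39.4 CPM against 1.47 to 2.46 CPM, so its AGES libraries fell into a higher and a lower pair, all above neoAC CellC. Id4, named above, and the homeobox targets Msx1 and Msx2 were among the lower members. Of 23 ligands, receptors and inhibitors 8 were higher and 11 lower, near the shares of all genes, and 8 and 2 when 10 counts were required in every library (median 0.46 instead of -0.13). The receptor Bmpr1a was at 582 against 141 CPM and the secreted inhibitor Nog (noggin) at 29.9 against 12.5 CPM. The ligand gene Bmp6 was at 0.234, 0.116, 0.48 and 0.263 CPM in AGES and at 239.6, 308, 316 and 331 CPM in neoAC CellC (log2 fold change -10.08, SE 0.23, adjusted p = 2.54e-22).

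The Notch, Hedgehog and growth factor lists held genes called in each direction, beside 34.1% higher and 40.6% lower of all genes, and no direction is read from them. Of 19 Notch genes 9 were higher and 8 lower, the receptor Notch1 being at 506 against 233 CPM. Of 18 Hedgehog genes 6 were higher and 9 lower. Gpr161, an inhibitory receptor of the primary cilium, was at 117 to 131 CPM in AGES against 16.4 to 20 CPM, while Gli1, the readout of active signalling, was at 0.406 against 3.29 CPM. Among 22 FGF and EGF receptor and feedback genes 5 were higher and 9 lower. Dusp6, a phosphatase induced by ERK activity, was at 4.6, 5.22, 4.71 and 6.35 CPM in AGES and at 162, 77.4, 66 and 91.6 CPM in neoAC CellC, and it averaged 478 CPM in NSCs, which were kept in FGF and EGF. The neuregulin receptor Erbb4 was at 0.039 to 0.145 CPM in AGES against 24.6 to 40.3 CPM.

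Genes of cell division were mostly lower in AGES. All 30 mitosis genes were called lower (median -6.05), and of 39 DNA replication genes 32 were lower and 2 higher (median -1.96), beside 40.6% lower and 34.1% higher of all genes. Mki67 (Ki-67), present in cycling cells, was at 0.663, 0.928, 1.31 and 1.02 CPM in AGES and at 248, 173, 167 and 231 CPM in neoAC CellC (log2 fold change -7.69, SE 0.22, adjusted p = 1.58e-20). Top2a, the mitotic topoisomerase, was at 3.35 against 342 CPM, and the cyclin Ccnb1 at 0.551 against 78.4 CPM. NSCs had 957 CPM of Mki67. Differences were smaller in replication genes. The sliding clamp Pcna was at 52.8 against 107 CPM, the helicase subunit Mcm5 at 3.68 against 53.7 CPM, and the polymerase subunits Pole2, at 10.7 against 5.53 CPM, and Pold2 were the higher members.

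Promoters of some replication genes hold a sequence that is less frequent over all promoters. The letters TTTGGCGC or TTTCCCGC, forms of the E2F site, were searched on both strands in RefSeq promoter windows (GRCm38.p6, 300 bases each, 250 before to 50 after the start). They occurred in 10 of 36 windows of the list (27.8%), which cover 30 of its 39 genes, against 1.56% of all 32851 windows. The 2 windows below belong to the called genes with a match and the largest fold changes, Cdc6, a loader of the replication helicase (0.507 against 8.36 CPM), and Mcm5. Capitals mark the match. The Cdc6 window is chr11:98907901-98908200, plus strand, and that of Mcm5 is chr8:75109259-75109558, plus strand.
Cdc6: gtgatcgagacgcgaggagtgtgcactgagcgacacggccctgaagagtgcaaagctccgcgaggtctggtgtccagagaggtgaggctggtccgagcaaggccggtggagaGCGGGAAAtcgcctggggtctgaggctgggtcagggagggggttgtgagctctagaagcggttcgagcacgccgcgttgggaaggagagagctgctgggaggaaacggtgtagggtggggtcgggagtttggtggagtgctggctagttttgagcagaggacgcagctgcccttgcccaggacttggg
Mcm5: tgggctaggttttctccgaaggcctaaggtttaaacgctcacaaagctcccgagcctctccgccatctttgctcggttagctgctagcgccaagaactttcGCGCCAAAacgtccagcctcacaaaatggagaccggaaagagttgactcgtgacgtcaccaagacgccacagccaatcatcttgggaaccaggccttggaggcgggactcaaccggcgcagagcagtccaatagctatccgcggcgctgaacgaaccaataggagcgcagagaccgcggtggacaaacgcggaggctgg
The match starts at position -138 from the gene start in Cdc6 and at -149 in Mcm5. It is a match of letters and no measurement of binding.

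Inhibitors of the cell cycle were called in both directions. Cdkn2a (p16 and p19) was at 90.5, 96.2, 106 and 94.9 CPM in AGES and at 1.75, 1.1, 1.27 and 1.72 CPM in neoAC CellC (log2 fold change 6.06, SE 0.16, adjusted p = 3.91e-21), and Cdkn2b (p15), its neighbour, was at 178 to 225 CPM against 7.34 to 10.7 CPM. Cdkn2a was already at 57.2 CPM in NSCs, and Cdkn2b at 13 CPM. Cdkn1b (p27) averaged 174 against 87.6 CPM. In the other direction Cdkn1a (p21) was at 21.1 against 174 CPM, and Cdkn1c (p57) was not detected in AGES and at least 158-fold lower than its 15.8 CPM in neoAC CellC. The cyclin Ccnd1 was at 34.3, 21.8, 70.1 and 111 CPM in AGES and at 876, 321, 271 and 423 CPM in neoAC CellC, and its kinase partner Cdk6 at 0.16 to 0.312 CPM against 48.8 to 73.9 CPM. Of 15 D cyclins, their kinases and inhibitors, 6 were higher and 8 lower, beside 34.1% and 40.6% of all genes.

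The genes of motile cilia were lower in AGES with few exceptions. Of 76 axoneme genes 75 were tested, 72 of them lower and 2 higher (median -6.50). With 10 counts required in every library, 10 regulators of multiciliated cells were lower (median -0.56). Without that filter 16 of these 18 regulators of multiciliated cells were lower (median -4.36). Deup1 (ENSMUSG00000039977, chr9:15559864-15627933, minus strand), which builds the many centrioles of such cells, was at 0, 0.058, 0.0641 and 0.132 CPM in AGES and at 90.6, 126, 125 and 97.8 CPM in neoAC CellC. Mcidas and Gmnc, the switches of the multiciliated program, were not detected in AGES and at least 392-fold and 166-fold lower. Foxj1, the master factor of motile cilia, was still present in AGES at 64.7, 58, 52 and 76.8 CPM against 1205, 1254, 1397 and 1107 CPM. The higher members were Spag6, a central pair protein, at 1.73 to 2.3 CPM against 0.166 to 0.332 CPM, and Cfap97, at 27.6 against 20.5 CPM on average. The markers of ependymal cells, which carry such cilia, were all 12 lower and summed to 92.5 to 134 CPM in AGES and 2073 to 2593 CPM in neoAC CellC. The 10 choroid plexus markers were lower too, with sums of 10.1 to 15.1 and 270 to 708 CPM. Their part in the cilium result was not tested.
The letters GTTNCCATG, the X-box that RFX factors read, were found in 7 of 70 axoneme windows (10%, of 6 genes) against 1.93% of all windows. Cfap161 and Cfap52 are printed because they are the called genes with a match and the largest fitted fold changes, with the match in capitals. The windows are chr7:83794790-83795089, minus strand, for Cfap161, and chr11:67965593-67965892, minus strand, for Cfap52.
Cfap161: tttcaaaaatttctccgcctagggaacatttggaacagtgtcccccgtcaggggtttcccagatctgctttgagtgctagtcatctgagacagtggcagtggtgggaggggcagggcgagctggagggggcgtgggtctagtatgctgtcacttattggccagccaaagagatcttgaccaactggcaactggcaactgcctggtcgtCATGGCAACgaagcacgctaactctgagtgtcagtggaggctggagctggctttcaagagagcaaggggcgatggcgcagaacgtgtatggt
Cfap52: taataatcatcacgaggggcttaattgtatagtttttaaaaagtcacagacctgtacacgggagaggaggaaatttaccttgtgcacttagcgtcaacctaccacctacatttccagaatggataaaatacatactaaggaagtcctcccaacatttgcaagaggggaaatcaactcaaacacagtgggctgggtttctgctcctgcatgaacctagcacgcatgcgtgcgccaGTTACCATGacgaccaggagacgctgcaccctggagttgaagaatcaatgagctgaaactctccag
Cfap161 was at 0.058 to 0.0987 CPM in AGES against 52.8 to 64.3 CPM, and Cfap52 at 0.156 to 0.203 CPM against 71.2 to 83.1 CPM. The match starts at -42 and at -16 from the gene start.

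The primary cilium, a single sensory cilium of most cells, had mostly lower genes too, with smaller differences. Of 45 genes 32 were lower and 9 higher (median -0.84). Arl13b, the small GTPase used to stain primary cilia, was at 17.1, 15.4, 15.2 and 13.8 CPM in AGES and at 29.6, 30.7, 28.8 and 26.6 CPM in neoAC CellC (log2 fold change -0.91, SE 0.08, adjusted p = 3.33e-10). Ift88, a subunit of the transport particle inside the cilium, was at 9.62 against 28.5 CPM. The lowest log2 fold change in the list was that of Adcy3, the adenylyl cyclase of neuronal and astrocyte cilia, at 0.232 to 0.461 CPM against 32.2 to 34.3 CPM. Gpr161, which acts in the same compartment, was among the higher genes, as given above.

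**Figure D4:**
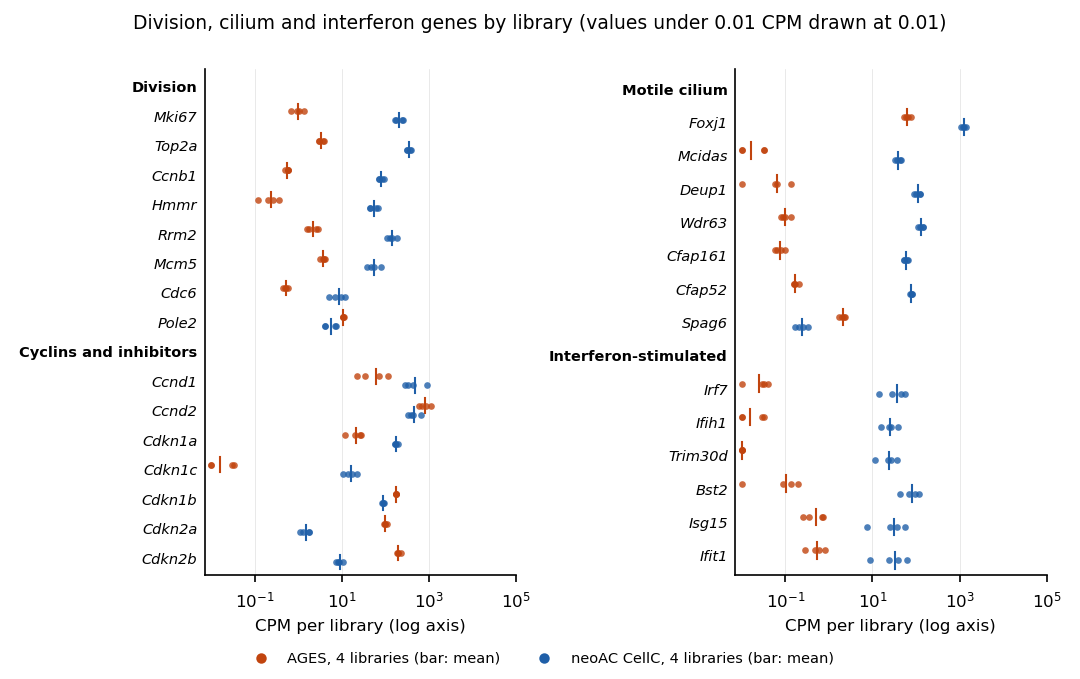
CPM in each library (log axis) of genes of division, cyclins and inhibitors, motile cilia and interferon response, AGES in orange and neoAC CellC in blue. Most division, cilium and interferon genes lie to the left in AGES, and Pole2, Spag6, Cdkn2a, Cdkn2b and Cdkn1b lie to the right.

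Most collagen genes were lower in AGES, and genes of the other matrix proteins went both ways. Of 42 collagen genes 40 were tested, 31 lower and 1 higher (median -4.83, and -4.43 with undetected genes at their bound), and 15 were lower when 10 counts were required in every library (median -1.65). Col1a1, of fibrillar collagen I, was at 0.741, 0.667, 0.961 and 0.921 CPM in AGES and at 171, 226, 147 and 219 CPM in neoAC CellC. Col3a1 was at 0.0974 against 116 CPM, and Col5a2 at 0.882 against 507 CPM. Among 52 proteoglycans and glycoproteins of the matrix, 16 were higher and 29 lower (median -1.37). With 10 counts required in every library, 15 were higher and 14 lower (median -0.12). Ncan (neurocan), a chondroitin sulfate proteoglycan of brain, was at 3129, 3307, 4498 and 4931 CPM in AGES against 352 to 422 CPM, fibronectin Fn1 at 3691 against 479 CPM, and Sparcl1 (hevin), which promotes synapses, at 4032 against 1178 CPM. Fmod (fibromodulin), a collagen-binding proteoglycan, was at 1357 to 2887 CPM in AGES, 178 to 275 CPM in neoAC CellC and 1.17 CPM in NSCs. Thbs1 (thrombospondin 1), also a synapse-promoting protein, was at 9.67, 13.8, 14.3 and 8.03 CPM in AGES and at 587, 753, 678 and 883 CPM in neoAC CellC.

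Receptors and proteases of the matrix split likewise. Of 33 laminin and integrin genes 10 were higher and 18 lower, with the common integrin subunit Itgb1 at 1763 against 496 CPM and the laminin chains Lama1 and Lama2 at 0.0153 against 27.9 CPM and 0.205 against 103 CPM. Of 44 matrix proteases and inhibitors 9 were higher and 19 lower, and Mmp14, a membrane-bound collagenase, was at 0.597 against 124 CPM. Of 23 cadherins 4 were higher and 13 lower (median -4.03), and 4 and 3 when 10 counts were required in every library (median 0.60). Cdh11, a mesenchymal adhesion protein, was at 0.174 to 0.329 CPM against 71.3 to 82.2 CPM. Markers of other cell types that make collagen moved with these genes. Of 14 fibroblast or meninges markers 11 were lower and 2 higher, and their sums were 1488 to 3066 CPM in AGES, mostly Fmod, and 813 to 1225 CPM in neoAC CellC. Lum (lumican), which marks meningeal fibroblasts, had no count in AGES and was at 8.87 to 17.5 CPM in neoAC CellC. For neoAC CellC the meninges had been removed from the tissue before the cells were sorted with ACSA-2 beads. Of 11 mural cell markers 7 were lower and 1 higher, with sums of 134 to 147 and 826 to 1483 CPM, mostly Notch3 in AGES (131 against 47.1 CPM) and Tagln (2.83 against 653 CPM) and Acta2 (5.58 against 429 CPM), genes of contractile cells, in neoAC CellC. Their part in the matrix result was not tested.

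**Figure D5:**
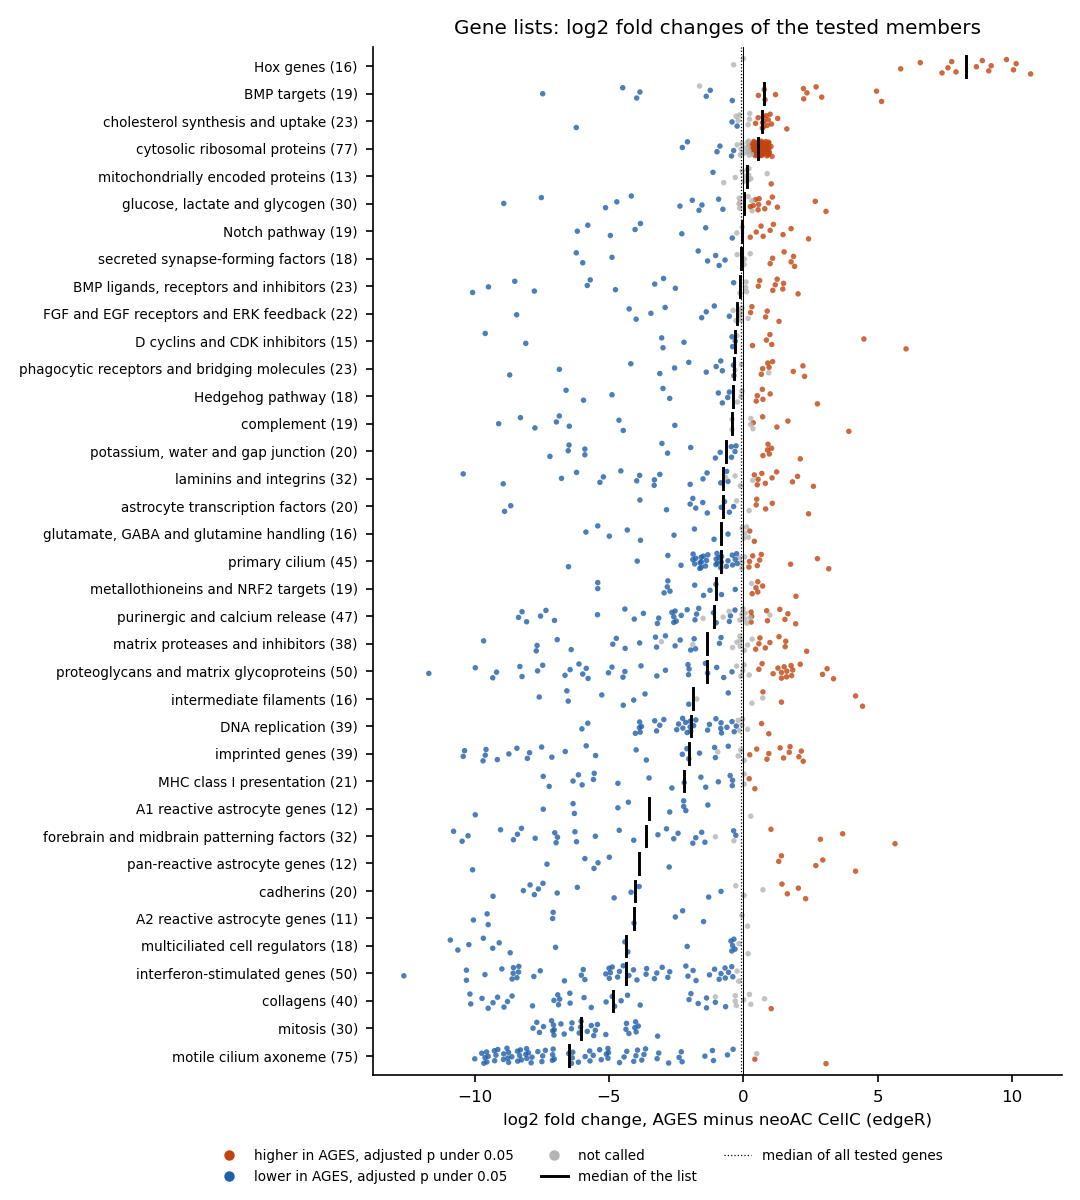
Log2 fold changes (x) of the tested members of each gene list (rows, number tested in brackets), with genes called higher in AGES in orange, lower in blue and not called in grey. With the cell type marker lists left out, medians run from -6.50 for the motile cilium axoneme to 8.30 for the Hox genes. With undetected genes at their bound they are -6.37 and 6.06. The Hox median covers only 16 of 39 members, 10 of them not detected in 1 of the groups. Its size therefore depends on which members were kept. It is 5.46 with DESeq2 and 5.79 with no filter. With 10 counts required in every library there is no Hox median, since no member is left. The dotted line marks the median of all tested genes.

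Pan-reactive astrocyte genes were called in both directions, while the called genes of the other reactive sets were all lower in AGES. Of 12 pan-reactive genes 5 were higher and 7 lower. Their summed level was 57189 to 67714 CPM in AGES, mostly Gfap, and 6782 to 7320.1 CPM in neoAC CellC, while their median was -3.87, and 1.19 with 5 higher and 4 lower when 10 counts were required in every library. Of 12 A1 genes, a set induced by inflammation, 11 were lower and none higher, and of 12 A2 genes, a set induced by ischemia, 9 of 11 tested were lower and none higher. The higher pan-reactive genes were Gfap, Vim, the iron oxidase Cp (1750.0 against 225 CPM), the hyaluronan receptor Cd44 (703 against 108 CPM) and Serpina3n. The cytokine receptor Osmr was not detected in AGES and at least 576-fold lower, and S100a10 was at 0.0658 to 0.203 CPM against 97.5 to 111 CPM. Serpina3n, Lcn2 and C3 varied among the AGES cultures. Serpina3n, a protease inhibitor, was at 112, 118, 419.8 and 763 CPM in AGES and at 135 to 152 CPM in neoAC CellC, and the groups overlapped. Its call (log2 fold change 1.32, SE 0.41, adjusted p = 0.00656) was lost without AGES replicate 4 (adjusted p = 0.0915). Lcn2, a secreted iron-binding protein, was at 9.09, 4.03, 29.5 and 142 CPM in AGES against 199 to 531 CPM. Complement C3 was at 1142, 964, 1647 and 2732 CPM against 1085, 1276, 761 and 816 CPM. C3 was called higher (log2 fold change 0.72, SE 0.27, adjusted p = 0.0185) and lost that call without AGES replicate 4 (adjusted p = 0.184), neoAC CellC replicate 3 (0.0651) or neoAC CellC replicate 4 (0.0578), with DESeq2 (0.0717) and under library size scaling alone (0.164). AGES replicates 3 and 4 were the higher ones in all 3 genes.

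Interferon-stimulated genes, which restrict viruses and are switched on through STAT factors, were mostly lower in AGES. Of 51 genes 50 were tested, 48 of them lower and none higher (median -4.37, and -4.02 with undetected genes at their bound). Irf7, a factor that amplifies the response, was at 0.039, 0.029, 0.032 and 0 CPM in AGES and at 13.9, 57, 45.2 and 27.9 CPM in neoAC CellC, at least 361-fold lower. Isg15, a ubiquitin-like modifier, was at 0.261 to 0.724 CPM against 7.52, 54.5, 35.8 and 24.7 CPM, and Bst2 (tetherin) at 0 to 0.195 CPM against 43.2, 118, 93.2 and 67.9 CPM. The neoAC CellC libraries differed in level, with replicate 1 lowest and replicate 2 highest in each of these genes. The summed level of the list was 947.7, 2659.5, 1898 and 1599.8 CPM in them and 434.6 to 525 CPM in AGES, so each neoAC CellC library was above each AGES library. NSCs had 0.00836 CPM of Irf7 and 0.112 CPM of Isg15.
The letters GAAANNGAA, the core of the interferon-stimulated response element, were found in 25 of 46 windows of the list (54.3%, of 24 genes) against 8.56% of all windows. The windows printed are of Trim30d and Ifih1, the called genes with a match and the largest fitted fold changes. Neither was detected in AGES by the limit above, so this order rests on fitted values and not on bounds. That of Trim30d is chr7:104507800-104508099 and that of Ifih1 is chr2:62646206-62646505, both on the minus strand, with matches in capitals.
Trim30d: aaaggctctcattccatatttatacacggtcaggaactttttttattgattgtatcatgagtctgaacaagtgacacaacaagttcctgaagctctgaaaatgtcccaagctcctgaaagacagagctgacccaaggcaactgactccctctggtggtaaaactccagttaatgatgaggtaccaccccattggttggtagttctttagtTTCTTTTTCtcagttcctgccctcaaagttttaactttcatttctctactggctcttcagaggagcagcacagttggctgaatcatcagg
Ifih1: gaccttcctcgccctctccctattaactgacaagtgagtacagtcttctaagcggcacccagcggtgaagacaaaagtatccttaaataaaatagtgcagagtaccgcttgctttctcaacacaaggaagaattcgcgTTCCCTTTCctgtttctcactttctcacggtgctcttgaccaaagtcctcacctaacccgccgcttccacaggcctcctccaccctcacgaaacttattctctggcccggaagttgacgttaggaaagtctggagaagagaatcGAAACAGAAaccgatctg
Trim30d, of a family with near-identical copies that the counting could confuse, had no count in AGES and was at 11.2 to 37.2 CPM in neoAC CellC. Ifih1 (MDA5), a sensor of double-stranded RNA, was at 0 to 0.0329 CPM against 15.9 to 37.6 CPM. The match starts at -40 in Trim30d and at -112 and 32 in Ifih1.

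Antigen presentation genes were mostly lower too. Of 21 MHC class I genes 17 were lower and 2 higher (median -2.20), and 9 and 1 when 10 counts were required in every library (median -0.62). H2-D1, a classical class I heavy chain, was at 6.32, 4, 11 and 13.8 CPM in AGES and at 173, 293, 223 and 203 CPM in neoAC CellC, and H2-K1 at 33.5 against 212 CPM. Class I heavy chains are near copies of each other, so reads may be split among them or left out. Microglia, the brain's immune cells, express such genes too, and the ACSA-2 sort of neoAC CellC does not select them. Of 16 microglia markers 10 were lower and 1 higher in AGES (median -3.96). With 10 counts required in every library, none of these markers was lower and 1 was higher (median 0.41). Their sums were 89.9 to 95.6 CPM in AGES and 49.0 to 66.5 CPM in neoAC CellC, the other way round from the counts, since the 1 higher member held most of the sum in each library. The defining Cx3cr1 was at 0 to 0.029 CPM in AGES and 0.156 to 0.665 CPM in neoAC CellC. Their part in the immune result was not tested. Of 21 complement genes 19 were tested, 5 higher and 9 lower, beside 34.1% and 40.6% of all genes, and 5 and 2 when 10 counts were required in every library (median 0.24 instead of -0.42).

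Genes of cholesterol synthesis and uptake were mostly higher in AGES, with 14 of 23 genes higher and 3 lower (median 0.71). With scaling by library size only, 12 were higher and 6 lower (median 0.40). On the TMM scale, 4 were higher and 1 lower beyond a log2 fold change of 1. Among the higher genes were Sqle, the squalene epoxidase, at 372 against 179 CPM and Hsd17b7 at 145 against 46.8 CPM. Apoe, which carries lipid out of astrocytes, was at 1049, 1018, 1186 and 836 CPM in AGES against 2914, 3548, 3803 and 2879 CPM, and the cholesterol exporter Abca1 at 159 against 646 CPM. Of 30 genes for glucose, lactate and glycogen 12 were higher and 11 lower, near the shares of all genes. Aldoc, the brain aldolase, was at 3389, 3286, 3325 and 3229 CPM in AGES and at 384, 378, 474 and 334 CPM in neoAC CellC. The lactate dehydrogenase subunits went opposite ways, Ldha at 1610.0 against 251 CPM and Ldhb at 221 against 643 CPM. The phosphofructokinase gene Pfkp was at 2.78 to 7.24 CPM against 182 to 203 CPM, and the glucose transporter Slc2a1 at 47.6 against 178 CPM. The median of this list was 0.03 and turned to -0.04 with DESeq2's size factors and to -0.28 with scaling by library size only.

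Cytosolic ribosomal protein genes were higher in AGES by a small amount, 58 of 77 tested being higher and 6 lower (median 0.55). With scaling by library size only, which moved the median of all genes to -0.37, 41 were higher and 12 lower (median 0.25). On the TMM scale, 2 were higher and 2 lower beyond a log2 fold change of 1. Rpl29 was an exception at 29.9, 32.7, 29.7 and 29.6 CPM in AGES and 173, 123, 142 and 151 CPM in neoAC CellC. These genes have many processed pseudogenes, and reads could be split between copies or left out. The 13 mitochondrially encoded protein genes were mostly not called, with 1 higher and 1 lower. mt-Co1, of cytochrome oxidase, was at 6931 and 6837 CPM. Of 21 metallothionein and NRF2 target genes 19 were tested, 6 higher and 12 lower. Mt2 was at 529 against 1859 CPM and Gclc, of glutathione synthesis, at 26 against 201 CPM, while Gpx4, the peroxidase that protects lipids, was at 619.6 to 1288 CPM in AGES against 234 to 245 CPM.

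Receptors that raise calcium, 47 genes with those of calcium release, were lower in 27 cases and higher in 9 (median -1.11). The ATP receptor P2ry1 was at 114, 151, 99.5 and 75.8 CPM in AGES and at 34.3 to 35.6 CPM in neoAC CellC, and the adenosine receptor Adora1 at 739 against 287 CPM. The metabotropic glutamate receptor Grm5 was at 0 to 0.165 CPM in AGES against 14.9 to 39 CPM, and the endothelin receptor Ednrb at 22.5 to 91.5 CPM against 286 to 369.9 CPM. Of 23 phagocytic genes 8 were higher and 12 lower, beside 34.1% and 40.6% of all genes. The engulfment receptors Mertk (36.1 against 9.97 CPM) and Axl (366 against 172 CPM) were higher, and their bridging ligand Gas6 was at 1.44, 1.07, 1.35 and 1.61 CPM in AGES and at 505, 597, 586 and 578 CPM in neoAC CellC. Of 18 secreted synapse-forming factors 6 were higher and 8 lower, near the shares of all genes, and Tgfb2 was at 167 against 44.5 CPM.

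Imprinted genes, expressed from a single parental copy, were mostly lower in AGES. Of 40 genes 39 were tested, 11 higher and 24 lower (median -2.03). The median was 0.12 when 10 counts were required in every library, which left 10 genes higher and 7 lower. Meg3, a maternal non-coding RNA of distal chromosome 12, was at 0.39, 0.203, 0.192 and 0.197 CPM in AGES and at 150.0, 191, 195 and 205 CPM in neoAC CellC (log2 fold change -9.58, SE 0.20, adjusted p = 4.57e-23). Its paternal neighbour Dlk1 was not detected in AGES and at least 395-fold lower. On other chromosomes Ndn was at 0.202 against 119 CPM, Nnat at 0.861 against 229.7 CPM, and H19, maternal, at least 132-fold lower, while its paternal neighbour Igf2 was at 4.74 against 57.9 CPM. Peg3, a paternal zinc finger gene, was at 323, 349, 255 and 258 CPM in AGES and at 59.2 to 67.6 CPM in neoAC CellC. NSCs had 0.208 CPM of Meg3, 0.0326 CPM of Dlk1 and 0.943 CPM of Nnat, and 243 CPM of Peg3.

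By fold alone, the 12 higher protein-coding genes ranged from at least 224-fold to 949-fold. They were Aplnr, Hoxa5, Hoxa3, Hoxa2, Lctl, Hoxb4, Myh8, Gata4, Myoc, Hoxa7, Eno1b and Trim63. Aplnr, the apelin receptor of endothelial and progenitor cells, was at 253, 212, 73.3 and 38.6 CPM in AGES and at 0.0624 to 0.222 CPM in neoAC CellC. Myh8, a muscle myosin, spread further, at 34.4, 76, 11 and 1.65 CPM against 0.0277 to 0.194 CPM. Myoc (myocilin), a secreted protein, was steady at 52.1 to 77.2 CPM against 0.0936 to 0.629 CPM. Eno1b is an intronless copy of the enolase gene Eno1, so its reads may be misplaced. In NSCs 7 of the 12 were at 10 CPM or more, and Aplnr, Lctl, Myh8, Myoc and Trim63 were under 1 CPM.

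The 12 lower genes ranged from 959-fold to 1732-fold. These are ratios of means, and the AGES means were 0.0498 to 0.273 CPM, the lowest under the limit of 0.0997 CPM. Genes not detected in AGES have bounds set at that limit, so the order mixes exact folds and bounds. The 12 genes were Deup1, Wdr63, Col26a1, Col3a1, Klhl9, Ccdc3, Bmp6, Sulf1, Fbln5, Aard, Nme5 and Ctsh, and all 12 were under 1 CPM in NSCs. The same held beyond them, since 191 of the 195 genes not detected in AGES and at 10 CPM or more in neoAC CellC were under 1 CPM in NSCs. Klhl9 (ENSMUSG00000070923, chr4:88718292-88722465, minus strand), a substrate adaptor of a ubiquitin ligase used in mitosis, was at 0, 0.087, 0.128 and 0.0987 CPM in AGES and at 91.7, 92.5, 90.3 and 96.9 CPM in neoAC CellC. It was at 63.6 to 86 CPM on average in the other 3 astrocyte groups. Its neighbours were chosen after their values were seen. Hacd4, a fatty acid elongation gene at chr4:88396144-88438928, was low too, at 0.353 against 76.4 CPM, while Focad, which overlaps it on the other strand (63.5 against 38.5 CPM) and Mtap (53.8 against 32.3 CPM), Cdkn2a and Cdkn2b on the other side were higher in AGES.

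Nnt encodes the mitochondrial transhydrogenase, and C57BL/6J mice are known to carry a deletion within it that C57Bl/6N mice lack. Nnt (ENSMUSG00000025453, chr13:119335448-119408997, minus strand) was at 103, 97.3, 102 and 91.3 CPM in AGES and at 48, 52.6, 52.4 and 49.9 CPM in neoAC CellC (log2 fold change 0.96, SE 0.07, adjusted p = 4.20e-12). NSCs, of the same line as AGES, had 100.3 CPM, and the other 3 groups from mice 26.5 to 40 CPM. Gene counts do not show which exons the reads came from.

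The share of called genes differed between chromosomes, which was not tested. On chromosome 10, 22.6% of 863 tested genes were higher and 52.4% lower in AGES, on chromosome 12 26.7% and 51.0%, on chromosome 5 24.9% and 46.0%, and on chromosome 4 28.9% and 46.1%, beside 34.1% and 40.6% of all. These 4 chromosomes were picked after their values were seen. Among genes at 10 CPM or more in both groups, median log2 fold changes were -0.07, 0.09, -0.03 and 0.02 on them and 0.18 to 0.37 on the other 15 autosomes. With scaling by library size only they were -0.38, -0.21, -0.33 and -0.28, and again the lowest. The shift of chromosome 10 from all genes was -0.285, -0.286, -0.297 and -0.298 when each AGES library was taken alone against the neoAC CellC mean, so all 4 values were alike, while that of chromosome 12 ranged from -0.0813 to -0.230. Set against AdAC CellC, medians of AGES on chromosomes 10, 12, 5 and 4 were -0.29, -0.07, -0.16 and -0.14. On the others they were -0.00 to 0.24. Against neoAC direct they were -0.20, -0.09, -0.14 and -0.06, and 0.11 to 0.27 on the others. Against AdAC direct they were -0.05, 0.04, -0.05 and 0.11, and 0.12 to 0.42 on the others, so chromosome 4 hardly stood apart there. NSCs against neoAC CellC gave 0.18, 0.08, 0.16 and 0.22, and 0.39 to 0.62 on the others. AGES against NSCs gave -0.23, -0.09, -0.19 and -0.15, and -0.19 to -0.08 on the others. These comparisons share AGES or neoAC CellC libraries and are not independent.

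Most markers of further cell types that were called were lower in AGES. Of 13 mature oligodendrocyte markers 10 were lower and 1 higher in AGES, with sums of 20.4 to 29.1 CPM in AGES and 252 to 321 CPM in neoAC CellC, and Mbp (myelin basic protein) was at 3.8 to 6.74 against 12.5 to 60.4 CPM. Of 12 oligodendrocyte precursor markers 9 were lower and 2 higher, but their sums overlapped at 517 to 806 CPM in AGES and 542 to 1080.0 CPM in neoAC CellC. Of 15 neuron and neuroblast markers 12 were lower and none higher, with sums of 441 to 539 and 561 to 627 CPM. With 10 counts required in every library, 3 of them were lower (median -0.57 instead of -3.94). The neuronal nuclear protein gene Rbfox3 was at 0.348 against 4.05 CPM. Endothelial markers summed to 1.65 to 3.33 and 88.0 to 137 CPM, 7 of 12 being lower, and Schwann cell or neural crest markers to 125 to 217 and 255 to 285 CPM. Of 12 neural stem cell markers 4 were higher and 7 lower, and 4 and 3 when 10 counts were required in every library (median 0.22 instead of -0.66). Their part in the differences between the groups was not tested.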

How the data were processed

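RNA was sequenced from 24 libraries of 6 groups, of which 4 AGES and 4 neoAC CellC libraries were compared. The authors made poly(A)-selected, stranded libraries and aligned paired reads with STAR 2.7.3a to GRCm38, keeping up to 20 alignments per read. Reads over exons were counted per gene with featureCounts. No counting option for reads with several alignments is named, so reads of near-identical genes could be shared or left out. The deposited values are raw counts per gene. Demultiplexing used bcl2fastq 2.20. All 24 libraries were fitted in edgeR 4.0.16 (R 4.3.3; filterByExpr, TMM, robust quasi-likelihood), with Benjamini-Hochberg adjustment over 19691 genes, X and Y included, and a threshold of 0.05. The procedure was also run on simulated data with far fewer changed genes than here, which cannot test the scaling of these libraries. Positions came from Gencode vM21, whose build is that of the files, and 97.07% of counts fell on the genes described. Genes were named by rule: the 12 largest folds in each direction at 10 CPM or more, the 10 genes of highest level in each group, list members with the largest changes at 5 CPM or more or the highest levels, and markers of the study. Hes5, Hoxd8, Hoxb9, Msx2, Gli1, Spag6, Cx3cr1 and Rbfox3 are under 5 CPM in both groups, and some other members were chosen after their values were seen. The genes and the 49 lists were chosen with earlier results of these data known. Alternatives were DESeq2 1.42.0, other scalings and filters, the 8 libraries alone with and without a replicate block, and leaving out each library. Some genes are not reported here.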

Additional observations from a re-analysis of the deposited data

Results flagged for a closer look

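In a group of 4, a library counts as standing apart when its gap to the nearest other library is beyond Dixon's critical value for the group's range, which chance gives in about 1 in 20 groups. Among the named genes with a mean of 1 CPM or more this held for 8 gene and group pairs of 262, fewer than chance gives. In AGES, Lmna was at 6.5 CPM in replicate 3, Hoxa10 at 6.09 CPM in replicate 3, Pole2 at 11 CPM in replicate 4, Rpl29 at 32.7 CPM in replicate 2 and Axl at 334 CPM in replicate 2. In neoAC CellC, Cfap97 stood at 23.8 CPM in replicate 4, Ndn at 70.7 CPM in replicate 2 and Nnat at 197 CPM in replicate 4. For all 8 genes the libraries of AGES and neoAC CellC still did not overlap.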

How the results depend on the processing

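The total of 14141 called genes was 14849 with DESeq2, 13989 with DESeq2's size factors, 13803 with scaling by library size only, 15284 with no filter on low counts, and 13826 to 13953 when each library was left out in turn. It fell to 9300 (4558 lower) when 10 counts were required in every library, which left 12755 genes to test and removes genes that fell in AGES, and to 8260 (2615 higher) when the calls were held to a log2 fold change beyond 1. Of the 169 genes named, 161 were called, 159 to 163 with each library left out, and 98 under the filter of 10 counts, which left 64 of them untested. The 100 most abundant genes held 23.9% of counts in AGES and 15.9% in neoAC CellC, and 19.4% and 15.2% when the top gene was dropped.

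A weaker result under some alternative was found for 10 named genes, in 20 of 2636 gene and setting pairs. In the 8 libraries alone 158 named genes were called. Among the named genes only uncalled ones turned in direction. Slc1a2 (0.01) was at -0.05 with DESeq2 and with its size factors, -0.11 with the filter of 10 counts, -0.29 with library size only, -0.03 in the 8 libraries, -0.06 with the replicate block, and -0.12 to 0.15 with each library left out. Glul (0.05) was at -0.01, -0.01, -0.07 and -0.25 under the first 4 of these, and -0.01 to 0.13 with each library left out. mt-Co1 (0.02) was at -0.05, -0.05, -0.11, -0.28, -0.03 and -0.02 under the same 6, and -0.07 to 0.09 with each library left out. Slc1a3 and Sox9 were at -0.11 and -0.08 with library size only. Glud1 (-0.04) was at 0.00 with no filter and -0.09 to 0.01 with each library left out, and with library size only it was called lower (-0.34, adjusted p = 0.000587). The causes were not tested.

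AGES and neoAC CellC share replicate numbers in the labels, but same-numbered libraries did not deviate together (correlations -0.044, -0.006, -0.051 and -0.061), so the numbers are not taken as pairs. With a replicate block the 8 libraries gave 12455 called genes, against 12975 without it.

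The medians of 13 of the 49 lists changed sign under some alternative, 10 of them under the filter of 10 counts, the imprinted, cadherin, pan-reactive and intermediate filament genes among these. That filter removes genes near 0 in either group. Under it the interferon-stimulated genes had 26 lower (median -2.23), the axoneme 29 (-4.34), and the forebrain and midbrain factors 7 (-1.90). Among the scalings this held for the glucose list and, at -0.15 with library size only, for the mitochondrially encoded genes. A scaling moves all genes alike, and the median of all genes was -0.37 with library size only. No change of these lists is read from the turns.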
